A study of Homo sapiens with 6 samples.

Results

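The genes described here carry iron and porphyrins into the mitochondrion, move heme out of the cell, or break heme down to bilirubin. The set was chosen by name as 10 genes (SLC25A37, SLC25A38, ABCB10, TMEM14C, FLVCR1, FLVCR2, HMOX1, HMOX2, BLVRA and BLVRB) of the 62252 genes to which the transcripts were assigned. PCBP1 is an RNA-binding protein that also binds iron and delivers it to other proteins. The study asked how raising PCBP1 (PCBP1 OE) changes the RNA of K562, a human leukemia line with red cell features that makes embryonic and fetal hemoglobin. Libraries of polyA RNA were made from 3 −Dox and 3 +Dox samples of one polyclonal stable line, in which doxycycline switches on a Flag-tagged PCBP1. All 6 libraries carry the same Flag-PCBP1 cassette, exchanged with a recombinase into a lox site that had been placed at AAVS1 in a single Cas9-edited clone of K562. The dose and time of Dox for these libraries are not given in the sources used here. No library with Dox and without the cassette was analysed here, so the effect of Dox itself and that of PCBP1 cannot be told apart. Nothing in the labels says that the libraries came from separate cultures, so each p-value measures the spread between these samples, which may be technical.

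Heme is made in a pathway that begins and ends inside the mitochondrion. Iron enters through the carrier mitoferrin, glycine is brought to the first enzyme by a second carrier, and porphyrins cross the membranes with the help of further transporters. A cell that holds too much heme can export it, or open the ring with a heme oxygenase, which releases iron, carbon monoxide and biliverdin, after which a biliverdin reductase makes bilirubin. Red cell precursors make far more heme than they break down, and heme oxygenase 1 is the form that stress and heme itself induce, whereas heme oxygenase 2 is made constitutively.

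The libraries held 84177316, 80104627 and 74766040 estimated counts in −Dox and 70905656, 82263502 and 82449808 in +Dox. PCBP1 was examined first, as a check of the labels. Its normalised counts (CPM, scaled to a common library total with edgeR's TMM factors) were 248, 270 and 267 in −Dox and 1030, 936 and 1037 in +Dox, a log2 fold change of 1.94 ± 0.055 (SE). The 3 +Dox libraries all lay far above the 3 −Dox libraries. Defining genes of K562 were present in all 6 libraries, with HBG2, a fetal globin, at 9894 TPM on average (transcripts scaled for length and library).

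The genes differed widely in level, and the changes with Dox were modest. Of the 10 genes, 8 passed the filter on low counts (a mean above 10), and FLVCR2 and HMOX1 did not. With edgeR's quasi-likelihood test, ABCB10, TMEM14C, FLVCR1 and BLVRB rose and HMOX2 fell at an adjusted p under 0.05. That is 5 of 8 genes, beside 15.8% of all 21045 genes tested. By direction, 4 of the 8 were higher in +Dox, beside 8.16% of all genes tested, and 1 was lower, beside 7.68%. None reached the limit for DEGs in the study (an absolute log2 fold change above 1 as well), which 1.46% of all genes did. In 7 of the 8 genes the CPM of the 2 groups did not overlap, beside 33.2% of all genes. The median log2 fold change of the 8 genes was 0.16, against 0.0061 over all genes tested, and the median of the absolute changes was 0.20, against 0.18. The set was chosen with earlier results of these data known, so the comparisons with all genes are descriptions and not tests.

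**Figure D1:**
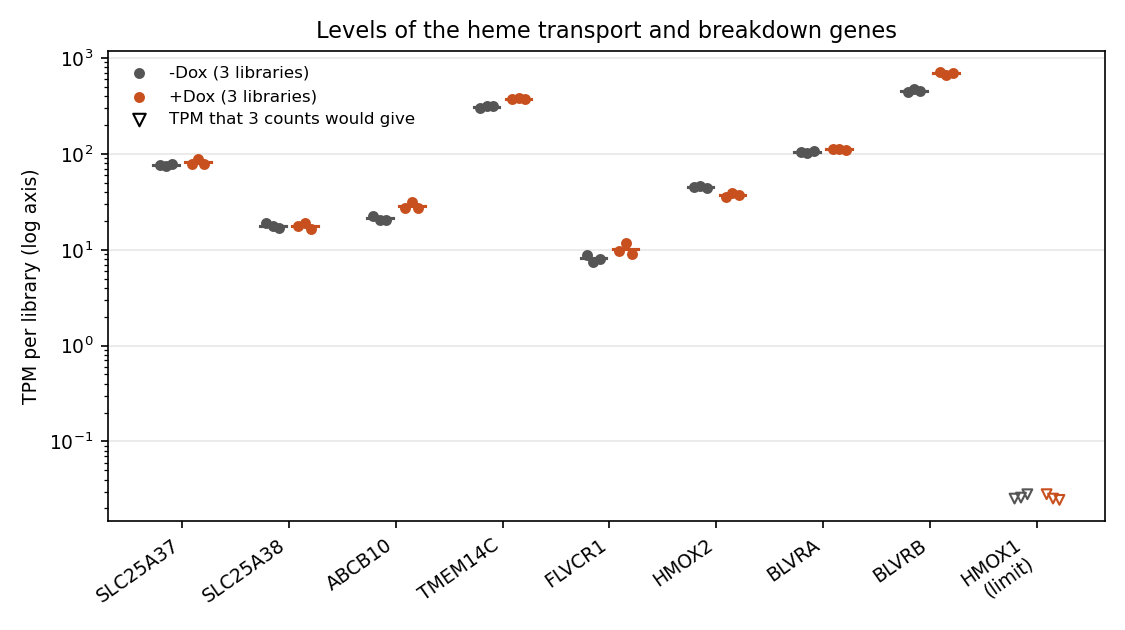
TPM (log axis) of the 8 tested genes in each −Dox (grey) and +Dox (orange) library, with the group mean as a line. Open triangles mark the TPM that 3 counts of HMOX1, which had 0 counts in every library, would have given. FLVCR2, with at most 7 counts in a library, is not drawn.

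On the TPM scale, which corrects for transcript length, BLVRB stood highest with 458 ± 20.6 TPM in −Dox and 693 ± 27.3 in +Dox (SD, n = 3 here and below). TMEM14C followed with 310 ± 9.74 and 376 ± 5.68 TPM, BLVRA with 104 ± 2.25 and 112 ± 1.22, SLC25A37 with 77.1 ± 1.37 and 81.9 ± 5.58, and HMOX2 with 45.1 ± 0.990 and 37.2 ± 2.07. ABCB10 had 21.2 ± 1.25 and 28.8 ± 2.38 TPM, SLC25A38 17.8 ± 0.953 and 17.7 ± 1.39, and FLVCR1 8.17 ± 0.684 and 10.1 ± 1.42. Among these 8 genes no neighbours in the order overlapped in the libraries of either group, and the order was the same in both groups. The closest neighbours were ABCB10 and SLC25A38 in −Dox, where the lowest library of ABCB10 had 20.5 TPM and the highest library of SLC25A38 18.8. FLVCR2 had at most 0.0246 TPM in a library, and HMOX1, listed at 0 in all, was not ranked.

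The mitoferrins carry iron into the mitochondrion. SLC25A37, mitoferrin 1 of red cell precursors (chr8:23528956-23575463, plus strand of GRCh38), had 244, 248 and 257 CPM in −Dox and 267, 281 and 259 CPM in +Dox. Every +Dox library lay above every −Dox library, by as little as the step from 257 to 259 CPM, and the log2 fold change of 0.11 ± 0.047 (SE) did not pass the test (edgeR, adjusted p = 0.155). Its 95% interval ran from 0.0046 to 0.21 on the log2 scale. SLC25A28, mitoferrin 2 of other tissues, fell by 0.26 on the log2 scale (edgeR, adjusted p = 0.0456), a call that was lost without any one library other than −Dox replicate 1 (adjusted p up to 0.139). SLC25A37 made up 91.3% ± 0.783 of the summed TPM of both mitoferrins in −Dox and 93.0% ± 0.606 in +Dox, without overlap. The exact permutation test gave p = 0.1 (two-sided), the smallest that 3 against 3 libraries allow, and 0.2 after Benjamini-Hochberg adjustment over 4 pairs of related genes, of which the heme oxygenases could give no test because HMOX1 is listed at 0 in every library.

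SLC25A38 is the carrier that supplies mitochondrial glycine for the first step of heme synthesis (chr3:39383370-39397351, plus strand), and its inherited loss causes a sideroblastic anemia. It had 34.2, 35.4 and 32.1 CPM in −Dox and 34.99, 33.9 and 32.9 CPM in +Dox. The groups overlapped fully, and this gene has no direction here, since the sign of a log2 fold change of 0.0024 turned with the scaling. The 95% interval of the log2 fold change, −0.12 to 0.13, covers changes of that size in either direction (edgeR, adjusted p = 0.985).

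ABCB10 and TMEM14C rose. ABCB10, an inner membrane transporter that red cell precursors need for heme synthesis and that binds mitoferrin 1, had 74.6, 72.6 and 72.8 CPM in −Dox. In +Dox it had 101.4, 110.3 and 103.5 CPM, so that each +Dox library stood clear of the tight −Dox group. The log2 fold change was 0.52 ± 0.049 (SE), a 1.43-fold rise (edgeR, adjusted p = 2.24e-05). The gene lies on the minus strand at chr1:229516582-229558707 (GRCh38, GENCODE 44). TMEM14C, an inner membrane protein of porphyrin import (chr6:10722915-10731129, plus strand), had 234, 263 and 253 CPM in −Dox and 311, 296 and 314 CPM in +Dox. The +Dox libraries were again all higher, and the log2 fold change was 0.30 ± 0.052 (edgeR, adjusted p = 0.00198).

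Of the 2 FLVCR genes only FLVCR1 was well detected. FLVCR1, the heme exporter at the cell surface and also a choline transporter (chr1:212858275-212899363, plus strand), had 28.5, 30.0 and 26.9 CPM in −Dox and 31.0, 33.7 and 33.1 CPM in +Dox. The groups did not overlap, but the gap between the highest −Dox and the lowest +Dox library was small. Its log2 fold change of 0.20 ± 0.061 passed narrowly (edgeR, adjusted p = 0.0440). The call was lost without any one of −Dox replicate 1, 2 or 3 or +Dox replicate 2 or 3 (adjusted p = 0.0664, 0.0528, 0.163, 0.137 and 0.126 in that order), and held without +Dox replicate 1 (0.0479). It was lost with DESeq2 size factors too (0.0522). With an offset for transcript length the log2 fold change was 0.34 and the call held (edgeR, adjusted p = 0.0413). FLVCR2, its paralog, had 6, 3 and 0 counts in −Dox and 7, 0 and 0 in +Dox, too few to test. On the opposite strand or the same strand, exons of FLVCR2 overlap FLVCR2-AS1 and TTLL5, so that even these counts could belong elsewhere.

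**Figure D2:**
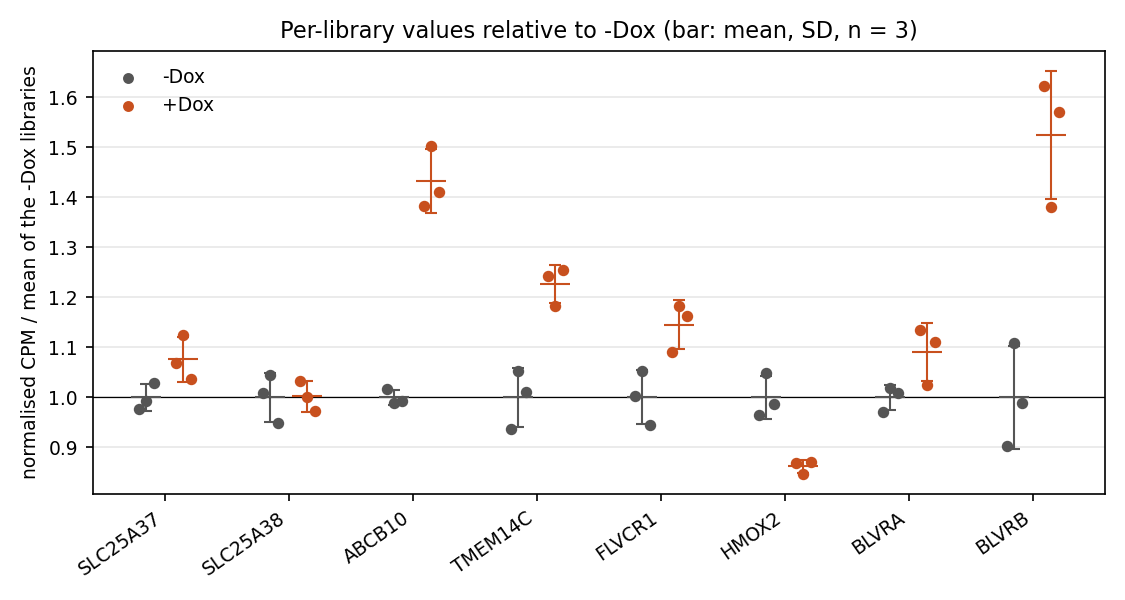
Normalised CPM of each library divided by the mean of the −Dox libraries, for the 8 tested genes. Points are libraries (grey −Dox, orange +Dox) and bars show mean and SD (n = 3). ABCB10 and BLVRB show the widest gaps between the groups, HMOX2 is the only gene with all +Dox libraries lower, and SLC25A38 overlaps.

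Of the 2 heme oxygenase genes only HMOX2 had counts. HMOX1, the inducible enzyme, was listed at 0 counts in each of the 6 libraries over all 7 of its transcripts at chr22:35380361-35394214 (plus strand). A count of 0 allows up to 3 counts, or 0.0354 to 0.0423 CPM and 0.0246 to 0.0282 TPM in a library, for counting error only. The annotated coding neighbours on either side did carry counts, with 3411 to 4249 per library for HMGXB4, 548 to 757 for TOM1 and 5035 to 5644 for MCM5, while RASD2 had 0 to 5. A total of 26664 genes were at 0 in every library, among them 2586 of 19991 protein-coding genes. These limits hold only if reads of HMOX1 would have been assigned to it. Whether its transcripts were lost in quantification was not tested, so the 0 is a listed value and gives no contrast of expression with HMOX2.

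HMOX2, the constitutive enzyme (chr16:4474690-4510347, plus strand), had 50.4, 54.7 and 51.5 CPM in −Dox and 45.4, 44.2 and 45.4 CPM in +Dox. All +Dox libraries lay below all −Dox libraries, with a spread of only 0.680 CPM (SD) among them. HMOX2 fell by 0.21 ± 0.052 on the log2 scale (edgeR, adjusted p = 0.0144). The call was lost without −Dox replicate 2 (adjusted p = 0.0718) or +Dox replicate 2 (0.0558), with the direction kept. NMRAL1, read from the opposite strand, shares 3.05% of HMOX2's exonic sequence, and it did not pass the test (log2 fold change 0.07).

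Among the biliverdin reductases BLVRB rose, and BLVRA did not pass the test. BLVRB, the B form of the enzyme that also reduces flavins and is abundant in red cells, had 259, 317 and 283 CPM in −Dox and 465, 395 and 450 CPM in +Dox. Even the lowest +Dox library, replicate 2, stood above the highest −Dox library, also replicate 2. The log2 fold change of 0.61 ± 0.075, a 1.52-fold rise, was the greatest of the 8 (edgeR, adjusted p = 1.77e-04). BLVRB lies on the minus strand at chr19:40447765-40465764. BLVRA, which makes the bilirubin of adult tissues from the product of heme oxygenase (chr7:43758680-43807342, plus strand), had 92.3, 96.8 and 95.9 CPM in −Dox and 108, 97.3 and 106 CPM in +Dox. One +Dox library was only just above the −Dox group, and the log2 fold change of 0.12 ± 0.052 did not pass (edgeR, adjusted p = 0.128).

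The ratio of BLVRB to BLVRA in TPM was 4.23, 4.72 and 4.29 in −Dox and 6.31, 5.94 and 6.35 in +Dox. The groups were well apart, with means of 4.42 ± 0.267 and 6.20 ± 0.227. As a share of both reductases, BLVRB was 81.5% ± 0.888 in −Dox and 86.1% ± 0.446 in +Dox, a difference of 4.59 percentage points (two-sided exact permutation p = 0.1, the smallest possible with these groups, adjusted p = 0.2). FLVCR1 made up nearly all of the FLVCR pair in both groups, with 99.9% on average in each (exact permutation p = 1).

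None of 4 short motifs searched occurs upstream of all 4 genes that rose. The stretches just upstream of the start of the 4 genes that rose were read from RefSeq (GRCh38.p14), which holds 10 windows for 8 of the 10 genes. Each is given on the gene's own strand and stops before the first annotated exon of a coding transcript, so that TMEM14C and BLVRB are shorter than the 250 bases of the others. Capitals mark GATAA (the core bound by GATA factors), CACCC (bound by KLF1 and its relatives), CACGTG (an E-box) and TGACNNNGC (the antioxidant response element bound by NRF2 and BACH1), on either strand. No marked motifs overlap. They are printed to show what these letters look like in place.
ABCB10: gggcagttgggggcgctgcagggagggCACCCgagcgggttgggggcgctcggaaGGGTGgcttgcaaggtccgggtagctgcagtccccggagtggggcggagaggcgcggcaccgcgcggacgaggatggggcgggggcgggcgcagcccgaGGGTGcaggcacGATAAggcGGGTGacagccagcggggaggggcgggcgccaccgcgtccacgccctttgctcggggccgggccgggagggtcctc
BLVRB: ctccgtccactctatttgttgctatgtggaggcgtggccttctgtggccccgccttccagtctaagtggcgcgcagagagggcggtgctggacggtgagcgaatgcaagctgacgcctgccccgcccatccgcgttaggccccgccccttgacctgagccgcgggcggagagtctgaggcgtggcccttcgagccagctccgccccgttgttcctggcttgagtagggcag
TMEM14C: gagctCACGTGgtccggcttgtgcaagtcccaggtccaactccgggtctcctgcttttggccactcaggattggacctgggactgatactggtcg
FLVCR1: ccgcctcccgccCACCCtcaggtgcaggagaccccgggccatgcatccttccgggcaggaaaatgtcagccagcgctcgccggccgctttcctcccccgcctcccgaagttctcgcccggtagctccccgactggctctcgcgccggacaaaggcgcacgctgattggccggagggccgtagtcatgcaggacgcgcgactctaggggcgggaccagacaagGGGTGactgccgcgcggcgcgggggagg
They lie at chr1:229558708-229558957 (minus), chr19:40465765-40465995 (minus), chr6:10722820-10722914 (plus) and chr1:212858025-212858274 (plus) in that order. GATAA occurs once in the ABCB10 window, between 2 copies of CACCC read on the other strand, and in none of the other windows of the set, and 20.4% of all 35116 RefSeq windows of 250 bases hold it. CACCC, which 54.7% of all windows hold, occurs 4 times upstream of ABCB10 and 2 times upstream of FLVCR1 in the stretches printed. Over the whole windows of 250 bases it is in 8 of 10. Those windows belong to ABCB10, FLVCR1 and TMEM14C, called higher, to BLVRA, SLC25A38 and HMOX2, not called higher, and to FLVCR2, not tested. The E-box, held by 6.34% of all windows, is in the TMEM14C stretch printed, and in 4 of the 10 windows of the set. Those are the windows of TMEM14C, SLC25A38, FLVCR2 and HMOX2, of which only TMEM14C was called higher and FLVCR2 was not tested. The BLVRB stretch holds none of the 4 motifs, and no window of the set holds TGACNNNGC, against 10.9% of all. A match describes letters and not a bound site.

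Transcripts within a gene are estimates that share reads, and their tests found little. Of all 86178 transcripts tested with edgeR 0.204% passed, and of the members only ABCB10-201, the main coding transcript with 95.6% of its gene's TPM, did so (log2 fold change 0.55 ± 0.047, adjusted p = 0.0362). It was lost when any library was left out (adjusted p = 0.121 to 0.168). The shares of transcripts within their gene were tested with limma on the log2 ratio. Of 34765 shares 0.023% passed and 8.77% had an unadjusted p under 0.05, and of 30 shares of the members none passed and 6 had an unadjusted p under 0.05. The smallest adjusted p was 0.235, for BLVRB-201, whose share was 91.8% ± 0.234 in −Dox and 94.0% ± 0.209 in +Dox.

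The classes of transcript differed far more between genes than between groups. For SLC25A37, 55.3, 54.8 and 56.1% of the TPM in −Dox and 53.1, 53.1 and 51.7% in +Dox were placed on transcripts annotated with a retained intron, led by SLC25A37-204 with 40.9%. The coding transcript SLC25A37-206 held 22.7%. SLC25A37-201, annotated for nonsense-mediated decay, held 11.5% ± 0.978 in −Dox and 14.4% ± 1.08 in +Dox (limma, adjusted p = 0.533), and SLC25A37-207, with a retained intron, 14.02% ± 0.741 and 11.2% ± 1.30 (limma, adjusted p = 0.545). SLC25A37-205, with no defined coding sequence, held 5.76%. FLVCR1-201, the full coding transcript, held 56.1% ± 6.03 and 50.1% ± 5.14, and the short FLVCR1-203, FLVCR1-204 and FLVCR1-205 without a defined coding sequence held 19.6, 14.4 and 12.5% on average. These shares weigh short transcripts heavily, because TPM divides by length. FLVCR1-203, FLVCR1-204 and FLVCR1-205 had at most 78, 73 and 31 estimated counts in a library, against at least 1914 for FLVCR1-201.

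Coding transcripts carried nearly all TPM of HMOX2, divided among several with different ends. HMOX2-208, with 6 exons, held 44.3% of the TPM, HMOX2-213 24.8%, HMOX2-206 19.5% and HMOX2-212 5.01%. HMOX2-206 was 22.1% ± 2.04 in −Dox and 16.3% ± 4.23 in +Dox (limma, adjusted p = 0.571). BLVRA-201 held 94.2%, TMEM14C-201 89.8% with TMEM14C-203 at 5.54%, and SLC25A38-209 81.7% with SLC25A38-206 at 10.2%.

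**Figure D3:**
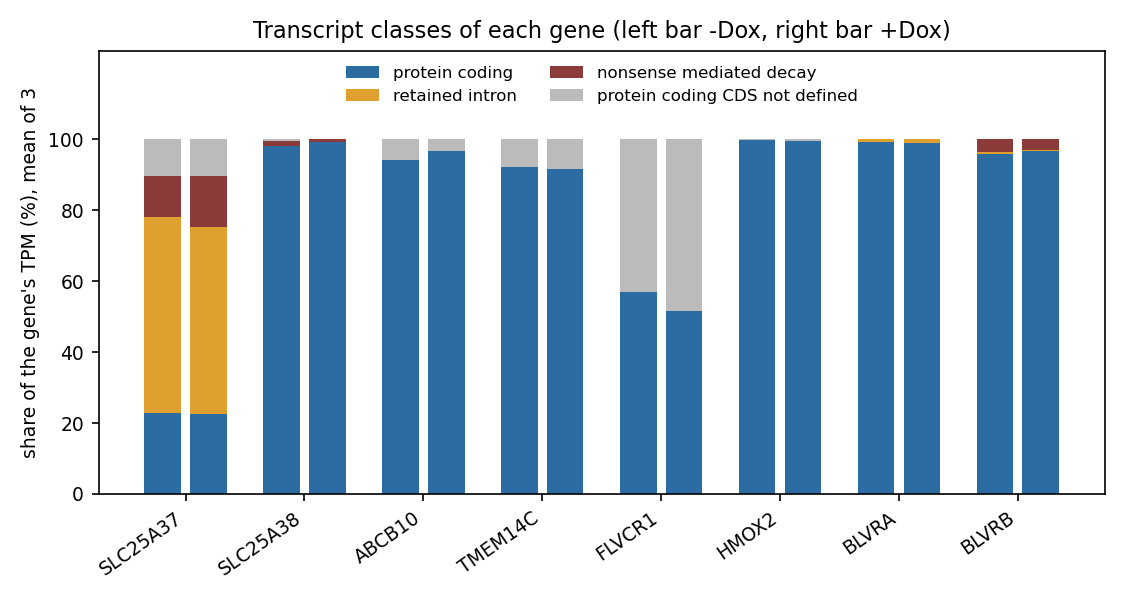
Mean share of each gene's TPM (%, n = 3) on transcripts of each annotated class, for −Dox (left bar) and +Dox (right bar). SLC25A37 has most of its TPM on transcripts with a retained intron. FLVCR1 has a large part of its TPM, but few of its counts, on short transcripts with no defined coding sequence. The other genes are mainly coding.

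The wider pathway was described with lists of named genes, set beside the median of 0.0061 over all genes and the shares of all genes that were higher (8.16%) or lower (7.68%). The lists were chosen with earlier results of these data known, so their counts and medians describe the listed genes and test nothing. Over all lists 19 genes were called higher and 8 lower. Between 2 and 4 list genes were called lower when 1 library other than −Dox replicate 1 was left out (2 without −Dox replicate 3 or +Dox replicate 3, 3 without −Dox replicate 2 or +Dox replicate 2, 4 without +Dox replicate 1), 8 without −Dox replicate 1, and 2 with an offset for transcript length. The higher calls ranged from 17 to 20 in the same fits. Of the 8 genes called lower with all libraries only GATA2 passed in every one of them. Heme synthesis had the highest median of the lists. Of its 9 enzymes, 8 rose and 1 fell, with a median log2 fold change of 0.51. ALAS2, the red cell form of the rate-limiting first enzyme, rose from 30.4 ± 1.43 to 87.8 ± 6.08 CPM, and PPOX, which oxidises protoporphyrinogen, from 20.1 ± 1.07 to 47.2 ± 2.0 CPM. UROS, FECH (the last enzyme, which inserts iron) and ALAD rose by 0.75, 0.64 and 0.51 on the log2 scale. ALAS1, the form of other tissues, was the 1 that fell, by 0.22 on the log2 scale, a call lost without −Dox replicate 2 or 3 or +Dox replicate 1 or 3 (edgeR, adjusted p up to 0.0890), and is named after its value was seen.

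Among 11 partners of mitochondrial transport, 4 rose and 1 fell (SLC25A28, whose call rested on single libraries as given above), with a median of 0.14. ABCB6, a porphyrin transporter of the outer membrane, rose by 0.58 on the log2 scale, TMEM14A and TMEM14B, relatives of TMEM14C, by 0.64 and 0.27, and FAM210B, a mitochondrial protein of red cell heme synthesis, by 0.32. TMEM14B stood at 329 TPM in −Dox, close to TMEM14C.

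Of 13 genes of heme uptake, export and handling in the cytosol, 11 were tested, 2 rose and none fell, with a median of 0.19. That median is the value of HPX, which had only 11 to 25 counts in a library and a 95% interval of −0.92 to 1.30. SLC48A1, which carries heme out of lysosomes, rose by 0.21 on the log2 scale, a call lost without −Dox replicate 2 or 3 or +Dox replicate 1 or 2 (edgeR, adjusted p up to 0.0773). SLC46A1, a folate carrier that also moves heme, rose by 0.48, and did not pass with the length offset, where its log2 fold change was 0.32. Of the 7 partners of bile pigment formation only 3 passed the filter. POR, the reductase that hands electrons to both heme oxygenases, fell by 0.19 on the log2 scale (edgeR, adjusted p = 0.0437), a call lost without any one library other than −Dox replicate 1 (adjusted p up to 0.176), and the median of the 3 was −0.19. UGT1A1, which conjugates bilirubin in the liver, was at 0 in all libraries, as was SLCO1B3.

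The listed regulators of HMOX1 all passed the filter on low counts. Of 9 regulators 1 rose and 3 fell, with a median of −0.040. BACH1, the heme-sensing repressor of HMOX1, rose from 107 ± 5.91 to 144 ± 7.91 CPM, a log2 fold change of 0.43 ± 0.056 (edgeR, adjusted p = 2.65e-04). MAFF and MAFK, small partners that BACH1 and NRF2 bind, fell by 0.42 and 0.36 on the log2 scale, and the stress factor ATF4 fell by 0.24. MAFF lost its call without −Dox or +Dox replicate 2 (edgeR, adjusted p up to 0.0636), MAFK without −Dox replicate 2 or 3 or +Dox replicate 3 (up to 0.0838), and ATF4 without any one library other than −Dox replicate 2 (up to 0.127). BACH1 passed in each of these fits. NFE2L2, which encodes NRF2, had 124.8 and 113.4 CPM and did not pass (edgeR, adjusted p = 0.0994). Of 12 targets of NRF2 and BACH1, 2 rose and none fell, a share near the 15.8% of all genes that passed, with a median of −0.021. They were FTH1, the ferritin heavy chain, by 0.27, and ME1, an enzyme that makes NADPH, by 0.36. FTH1 lost its call without +Dox replicate 1 (edgeR, adjusted p = 0.0619).

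Among 8 erythroid factors 2 rose and 2 fell, with a median of 0.10. TAL1 and KLF1 rose by 0.44 and 0.46 on the log2 scale, and LMO2 and GATA2 fell by 0.20 and 0.36. LMO2 lost its call without −Dox or +Dox replicate 2 or 3 (edgeR, adjusted p up to 0.0996). GATA1, the main erythroid factor, had a log2 fold change of 0.12 and did not pass (edgeR, adjusted p = 0.113).

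**Figure D4:**
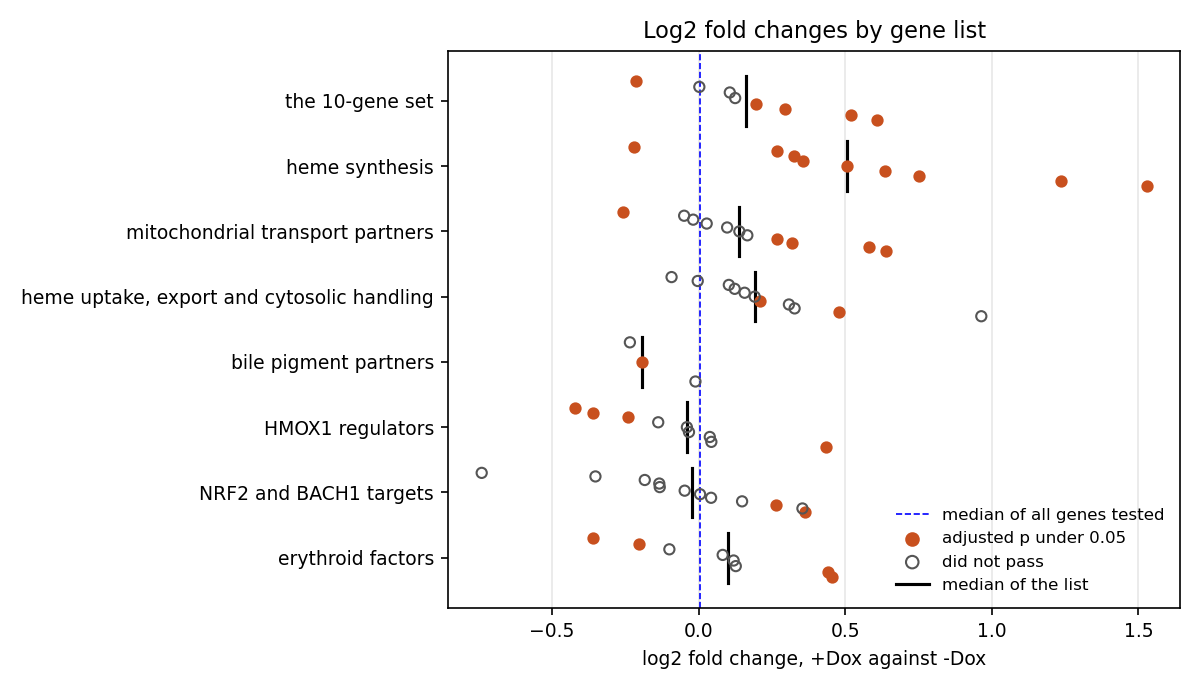
Log2 fold change of +Dox against −Dox for each tested gene, by list. Filled points passed an adjusted p under 0.05, open points did not, the black line is the median of the list and the dashed line the median of all genes tested (0.0061). Heme synthesis has the highest median (0.51).

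Of 10 erythroid markers of K562 5 rose and 1 fell, beside 8.16% and 7.68% of all genes tested, while GATA1 and the globin genes HBG1, HBG2 and HBE1 did not pass. ALAS2, TAL1 and KLF1 among the 5 were already counted in the lists above. Among those that passed were EPOR and ALAS2, which rose by 0.97 and 1.53 on the log2 scale, and TFRC, the transferrin receptor, which fell by 0.34. The summed level of the 10 markers was 20470, 20770 and 19860 TPM in −Dox and 20080, 20060 and 19590 TPM in +Dox, most of it globin RNA. The part of red cell maturation in the changes of the set was not tested, and in bulk RNA fewer cells of a type and less RNA per cell cannot be told apart. Among 7 markers of macrophages, which break down heme in the body, only CD68 and VSIG4 passed the filter on low counts. CD163 had 2 counts in all, MARCO 0, CD14 44, CSF1R 21 and MRC1 48, and the summed level of the 7 markers was 12.87, 10.97 and 10.6 TPM in −Dox and 7.27, 6.78 and 6.86 TPM in +Dox. Nearly all of it was CD68, a lysosomal protein of many cells, which fell by 0.62 on the log2 scale. VSIG4 had 140, 82 and 74 counts in −Dox and 16, 68 and 42 in +Dox. It fell by 1.24 on the log2 scale and passed narrowly (edgeR, adjusted p = 0.0462). Liver markers summed to at most 0.278 TPM and fibroblast markers to at most 1.04 TPM in a library, and no tested gene of either list passed.

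The genes whose pattern over the 6 libraries was nearest to each changed member were taken from 8747 coding genes, by Euclidean distance of centred log2 CPM. Nearest to ABCB10 were PI4K2B, IFT74 and DHTKD1 (distances 0.063, 0.064 and 0.081). Nearest to BLVRB were AKR7A2, REEP6 and SPDYC (0.099, 0.12 and 0.12), and to TMEM14C, TK1, ARHGEF25 and FUNDC2 (0.037, 0.039 and 0.047). FLVCR1 was nearest to C5orf24, BBS7 and INPP4A (0.055, 0.059 and 0.062), and HMOX2 to CSTF2 and TGDS (0.031 and 0.037). Genes of the set were not among these neighbours, and BLVRB had none as close as those of HMOX2.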

How the data were processed

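Libraries of polyA RNA were sequenced as paired ends of 150 cycles. The authors quantified each library with Salmon 1.10.2 and deposited, per transcript, an estimated count (NumReads, not scaled), TPM and transcript lengths. The index and the strand setting of Salmon are not given in the sources used here, so genes that overlap on opposite strands are uncertain. Identifiers were matched to GENCODE 44, of which 433 of 252045 did not match (0.125 to 0.138% of the counts). Estimated counts were summed per gene and rounded, and TPM summed.

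Genes with a mean count above 10 were fitted across the whole table with edgeR 4.0.16 (TMM, quasi-likelihood test) in R 4.3.3, with Benjamini-Hochberg adjustment over all of them. Transcripts were tested likewise, and shares within a gene with limma 3.58.1 on log2 ratios (pseudocount 0.1 TPM, at least 1 TPM). Paralog shares used an exact permutation test. Alternatives were DESeq2 1.42.0, DESeq2 size factors, other filters, pseudocounts and length offsets, the replicate number as a term, and leaving out each library. Simulated data took mean levels from these libraries, a spread set by hand, and 200 well counted features with a log2 fold change of 1. On these edgeR recovered 100% of genes over 21045, with 11 false calls, and 79% of transcripts over 86178, with 10 false calls. The changes of the members were smaller, and recovery of changes of that size was not tested. Sharing of reads between transcripts was not simulated.

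The members, lists and motifs were chosen with earlier results of these data known. Genes named are all members, their transcripts with at least 5% of the gene's TPM, up to 5 passing genes per list by p, 3 nearest genes per changed member, and genes that overlap them. Some genes under this rule are not reported here. Genes of the lists named outside this rule (ALAS1, NFE2L2, GATA1, UGT1A1 and SLCO1B3) and the neighbours of HMOX1 were chosen after their values were seen. The globin genes and other genes of the cell type marker lists that did not pass or were not tested are also named outside this rule. Python 3.11.15 with matplotlib was used for figures.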

Additional observations from a re-analysis of the deposited data

How the results depend on the processing

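Directions held under all 12 alternatives for each tested member other than SLC25A38, whose log2 fold change of 0.0024 was −0.0056 with DESeq2, −0.0055 with DESeq2 size factors in edgeR, −0.0004 without a filter on low counts and −0.0037 with at least 10 counts in every library, and −0.035 to 0.029 when 1 library was left out (without −Dox replicate 3, and −0.020 without +Dox replicate 1, for the lower values). The calls of ABCB10, TMEM14C and BLVRB held under all 12, and those of SLC25A37, SLC25A38 and BLVRA stayed out. Leaving out 1 library gave 3 to 5 members called, the 3 without −Dox replicate 2 or without +Dox replicate 2, 2267 to 3313 genes called (3333 with all libraries; 2173 of the 2267 and 2763 of the 3313 were among these), and 2 to 4 transcripts called (176 with all). With a transcript length offset 1882 genes were called (913 higher, 969 lower). Replicate numbers did not pair the samples (correlations of same-numbered deviations 0.048, −0.23 and −0.043), and with the replicate block edgeR called 0 transcripts (6813 had an unadjusted p under 0.05), ABCB10-201 was lost (adjusted p = 0.612) and FLVCR1 was lost (0.0777), while no other member's call changed. DESeq2 called 3939 genes. List genes called lower, 8 in the reported fit, numbered 2 with the length offset, 5 with the replicate block and 2 to 8 with 1 library left out, and 12 with DESeq2. The causes of these differences were not tested. FLVCR2 had too few counts for a fold change, and HMOX1 was listed at 0.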

Other observations

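Some genes known from other tissues were well expressed in these K562 libraries in both groups. The keratins KRT8, KRT18 and KRT19 had 203, 167 and 61.7 TPM in −Dox and 183, 150 and 55.6 TPM in +Dox, and EPCAM had 36.7 and 32.6 TPM, while CDH1, the defining adhesion gene of epithelia, had 37 counts in all libraries together. CD3D, a subunit of the T cell receptor complex, had 49.9 and 44.2 TPM, while its partner CD3E had 10 counts in all and CD2 25. CD79A had 39 counts in all and MS4A1 0. None of the tested genes among these passed the test of +Dox against −Dox with edgeR (adjusted p = 0.155 to 0.686).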
